A study of Mus musculus with 6 samples.

Results

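The miR-1, miR-133 and miR-206 miRNAs, often called myomiRs, were followed in small RNA libraries of mouse myocardial tissue, the muscle wall of the heart. Members were all rows named mmu-miR-1a-, mmu-miR-1b-, mmu-miR-133a-, mmu-miR-133b- or mmu-miR-206-, which gave 8 of the 984 mature miRNAs. They are mmu-miR-206-3p, mmu-miR-133b-3p, mmu-miR-133a-3p, mmu-miR-133a-5p, mmu-miR-1a-3p, mmu-miR-1a-1-5p, mmu-miR-1a-2-5p and mmu-miR-1b-3p, written without the mmu prefix from here on. Tissue was taken at a post-mortem interval of 6 d in 3 libraries and of 0 h in 3 libraries, and the series is titled as a study for estimating that interval from miRNAs. Strain, age, sex and treatment were not stated in the labels used here, nor was it said that the libraries of a group came from separate mice. The p-values therefore measure only the spread between these libraries, which may be technical.

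MiR-1 and miR-133a are made from shared transcripts in heart and skeletal muscle, where miR-1 is tied to differentiation and miR-133 to proliferation and to restraint of hypertrophy. MiR-206 and miR-133b form a separate pair, expressed mainly in skeletal muscle, and miR-206 is known for its role at regenerating neuromuscular junctions. A hairpin precursor can yield a mature miRNA from each side, named 5p and 3p, of which usually 1 is kept as the guide and the other is degraded. In the RefSeq annotation of GRCm38.p6, Mir206 and Mir133b lie next to each other on chromosome 1, and Mir1a-1 next to Mir133a-2 on chromosome 2. Mir133a-1, Mir1b and Mir1a-2 are neighbours at another locus, where Mir1b overlaps Mir1a-2.

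Mature sequences are shown for 3 members. MiR-206-3p and miR-133b-3p are 3p arms with different seeds, and miR-1a-1-5p is a passenger arm with a seed of its own. Bases 2 to 8, the seed that pairs with targets, are in capitals. The sequences are from RefSeq (GRCm38.p6, plus strand), 5′ to 3′.
miR-206-3p: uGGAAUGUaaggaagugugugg
miR-133b-3p: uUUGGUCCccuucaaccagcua
miR-1a-1-5p: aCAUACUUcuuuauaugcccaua
The seed of miR-206-3p is also that of miR-1a-3p, as known from the literature on these miRNAs. The seed of miR-133b-3p is likewise that of miR-133a-3p. The sequence of miR-1b-3p was not available here, so its seed was left out. The other 3p members thus fall into 2 seed groups, and each of the loci named above holds both seeds. MiR-133a-3p and miR-133b-3p are near-identical. How reads that match both rows were assigned is unknown here, so the split within this pair is uncertain. MiR-1a-3p and miR-1b-3p were not compared in sequence, so any sharing of reads between them is unknown.

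The libraries held between 617069 and 1889594 miRNA reads at 6 d and between 4468547 and 7906557 at 0 h. Levels are given as normalised CPM, that is reads per 1000000 after the authors' library-specific correction, so each is relative to the other miRNAs of its library. For 0 h replicate 1, deposited as raw counts, the correction was derived here (factor 0.919). Heart identity was checked with 2 miRNAs of myosin heavy chain introns, miR-208a-3p and miR-499-5p. Both were found in all 6 libraries, at lower levels at 6 d. MiR-208a-3p had 47.6 to 139 normalised CPM at 6 d and 162 to 261 at 0 h. MiR-499-5p had 799 to 1284 normalised CPM at 6 d and 1792 to 4044 at 0 h. Of the 8 members, 7 passed the filter of 1 normalised CPM in at least 3 libraries and were tested among 470 miRNAs with limma on log2(normalised CPM + 1). A miRNA was called where p, adjusted over all 470 by Benjamini-Hochberg, was under 0.05.

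At 6 d, miR-206-3p, miR-133b-3p, miR-133a-3p and miR-1a-1-5p were higher than at 0 h and miR-133a-5p was lower, while miR-1a-3p and miR-1b-3p were not past the threshold. The calls thus covered 5 of 7 tested members, against 37.9% of all tested miRNAs. Rises covered 4 of the 7, against 16% of all tested, and falls 1 of the 7, against 21.9%. The median log2 fold change of the 7 was 1.43, beside -0.33 over all 470. With miR-133b-3p summed into miR-133a-3p and miR-1b-3p into miR-1a-3p, 4 members were called, among 178 of 468 tested miRNAs. MiR-1a-1-5p, among the rises, had at most 11 reads in any library. In bulk tissue, fewer cells of a type and less RNA per cell cannot be told apart. With the quasi-likelihood test of edgeR on whole reads, 5 of 6 tested members were called, against 41.6% of all miRNAs tested there. Of these 4 were higher, against 22% of all, and 1 was lower, against 19.6%.

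**Figure D1:**
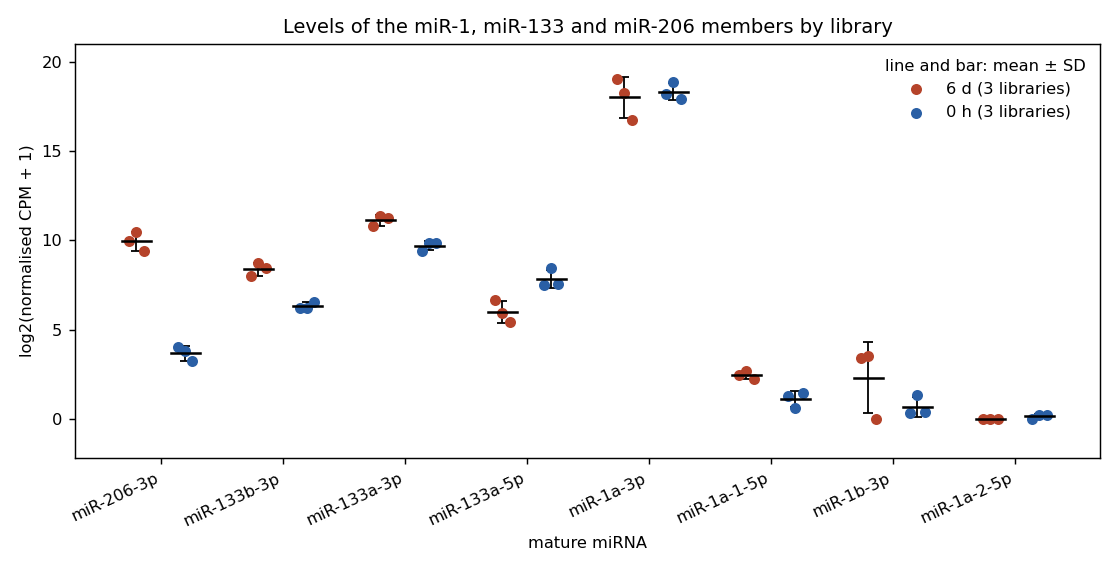
Level of each member as log2(normalised CPM + 1) on the vertical axis, with 1 point per library, 6 d left of 0 h, and the mean ± SD as line and bar. The 6 d points of miR-206-3p lie between 9.42 and 10.49 and its 0 h points between 3.22 and 4.03, whereas those of miR-1a-3p overlap.

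MiR-206-3p, the skeletal muscle member with the seed of miR-1a-3p, showed the largest log2 fold change of the 7 tested. It had 979, 1440.1 and 685 normalised CPM in the 6 d libraries, against 15.3, 12.8 and 8.34 in the 0 h libraries. These were 1537, 1088 and 759 reads at 6 d and 63, 77 and 54 reads at 0 h, although the 6 d libraries were the shallower ones. All 6 d libraries lay far above all 0 h libraries, and the spread within each group was small beside that gap. The log2 fold change was 6.27 ± 0.38 (SE, n = 3 each, limma adjusted p = 5.4e-06), a 77.2-fold difference. In the order of log2 fold changes over the 470 miRNAs it stood at place 3. Among the 984 miRNAs, miR-206-3p ranked 52, 35 and 55 by reads at 6 d, against 234, 245 and 276 at 0 h. It still made up only 0.0813% to 0.156% of the reads at 6 d.

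MiR-133b-3p, the neighbour of miR-206 on chromosome 1, rose less. It had 253, 418 and 350.2 normalised CPM at 6 d, against 73.5, 73.2 and 92.8 at 0 h. The groups did not overlap, and the 0 h libraries agreed closely. Its log2 fold change was 2.06 ± 0.32 (SE, n = 3 each, limma adjusted p = 0.0011). For comparison, 50.6% of all tested miRNAs had groups that did not overlap.

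The balance within this pair turned over. There were 3.86, 3.44 and 1.96 reads of miR-206-3p per read of miR-133b-3p at 6 d, against 0.209, 0.175 and 0.0899 at 0 h. MiR-206-3p was thus the more abundant of the pair in each 6 d library and the less abundant in each 0 h library. The mean log2 ratio was 1.57 ± 0.53 at 6 d and -2.75 ± 0.64 at 0 h (SD, n = 3 each), a difference of 4.32, or 19.9-fold. An exact two-sided permutation test gave p = 0.1, which is the lowest value possible with 3 libraries a group, and 0.13 when adjusted over the 8 ratios and shares compared. Such a ratio does not depend on how a library was scaled.

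MiR-133a-3p, the guide arm of miR-133a in heart, also rose. It had 1751, 2589 and 2470.2 normalised CPM at 6 d, against 674, 914 and 926 at 0 h. Its 6 d values were all above its 0 h values. The log2 fold change was 1.43 ± 0.31 (SE, n = 3 each, limma adjusted p = 0.0069), and it was the second most abundant member at both intervals. The near-identical miR-133b-3p had 0.145, 0.162 and 0.142 reads per read of miR-133a-3p at 6 d, against 0.109, 0.0801 and 0.10 at 0 h. This ratio was higher in every 6 d library by a mean of 0.64 on the log2 scale, or 1.56-fold (exact permutation p = 0.1, adjusted 0.13). With both rows summed, the log2 fold change of miR-133-3p was 1.5 (limma adjusted p = 0.0052).

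MiR-133a-5p, the arm on the other side of the same precursors, moved the opposite way. It had 99.9, 59.5 and 42.4 normalised CPM at 6 d, from 157, 45 and 47 reads, against 181, 347 and 186 at 0 h, from 743, 2083 and 1207 reads. All 6 d libraries lay below all 0 h libraries. The log2 fold change was -1.83 ± 0.41 (SE, n = 3 each, limma adjusted p = 0.0077).

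Set against its 3p arm, the 5p arm was 5.40% of the miR-133a reads in 6 d replicate 1 (95% exact interval 4.61 to 6.28), 2.25% (1.64 to 3.0) in replicate 2 and 1.69% (1.24 to 2.24) in replicate 3. At 0 h it was 21.2% (19.8 to 22.6), 27.5% (26.5 to 28.5) and 16.7% (15.9 to 17.6) in replicates 1 to 3. These intervals cover counting error only, as no molecular identifiers were used to count molecules. The 2 sets of values were well apart, with means of 3.11% ± 2.0 at 6 d and 21.8% ± 5.40 at 0 h (SD, n = 3 each). With 1 read added to each arm, the 5p to 3p ratio on the log2 scale changed by -3.25 ± 0.56 at 6 d (SE, n = 3 each, limma adjusted p = 0.0054 over 117 precursors with both arms tested). Of the 117 precursors 39.3% were called, 18.8% lower and 20.5% higher, and miR-133a stood at place 3 among the falls.

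**Figure D2:**
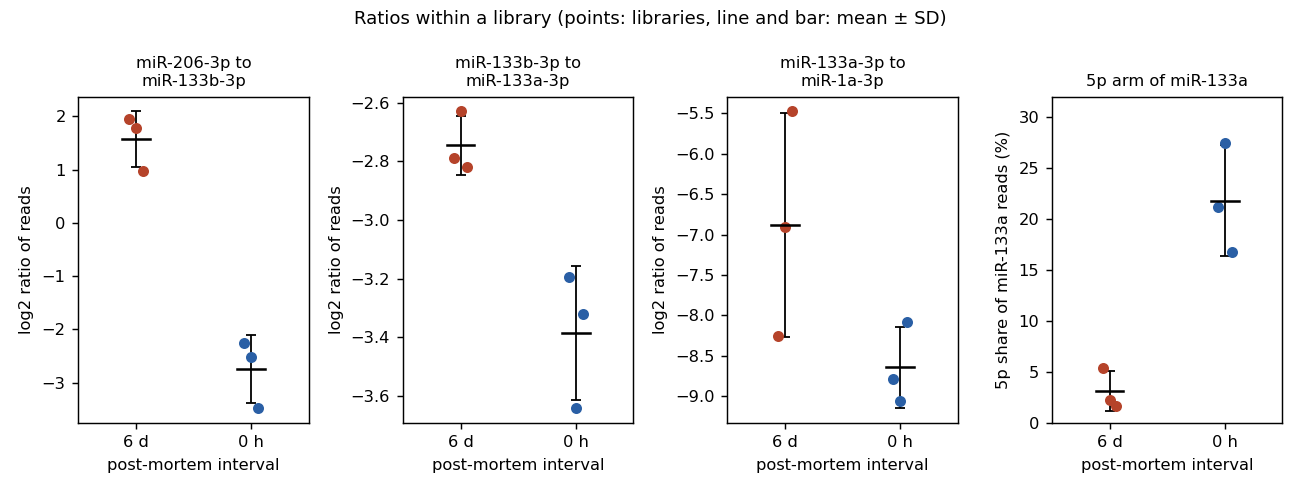
Ratios of reads within a library, with 1 point per library, 6 d left of 0 h, and the mean ± SD as line and bar; the first 3 panels are log2 ratios with separate axes, and the last is the 5p share of miR-133a reads in percent from 0. The 6 d and 0 h points are apart in all panels but that of miR-133a-3p to miR-1a-3p.

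MiR-1a-3p, the main cardiac member, ranked first in every library. It took 44.3%, 33.5% and 19.8% of all miRNA reads at 6 d, against 27.2%, 37.1% and 22.3% at 0 h. The 0 h range lay within the 6 d range, since the 6 d libraries spread more widely, from 110064 to 532712 normalised CPM, against 251639 to 487823 at 0 h. The log2 fold change was -0.33 ± 0.55 (SE, n = 3 each, limma adjusted p = 0.67), with a sign that depended on the scaling: it was 0.13 with library totals alone. Without 6 d replicate 3, the library with the lowest level, it was 0.30 (limma adjusted p = 0.59).

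Since miR-1a-3p makes up nearly all the reads of the family, the family share followed it, with 44.5%, 34.0% and 20.4% at 6 d and 27.3%, 37.2% and 22.4% at 0 h. The exact permutation p for this share was 0.7. Among the reads left when miR-1a-3p was set aside, the other members took 0.462%, 0.734% and 0.795% at 6 d, against 0.119%, 0.163% and 0.139% at 0 h. That share was higher in all 6 d libraries (means 0.664% ± 0.177 and 0.140% ± 0.022, SD, n = 3 each, exact permutation p = 0.1, adjusted 0.13).

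MiR-133a-3p and miR-1a-3p come from shared transcripts, yet their reads were far from equal. There were 304, 119.8 and 44.5 reads of miR-1a-3p per read of miR-133a-3p at 6 d, against 440, 534 and 272 at 0 h. The groups overlapped, since 6 d replicate 1 lay within the 0 h range, while 6 d replicates 2 and 3 lay outside it. The mean log2 ratio of miR-133a-3p to miR-1a-3p differed by 1.76 between 6 d and 0 h (exact permutation p = 0.2, adjusted 0.23). Against miR-1a-3p and all other rows of the miR-1 and miR-133a loci, the summed miR-206-3p and miR-133b-3p reads were 18.1-fold higher at 6 d, by 4.18 on the log2 scale (exact permutation p = 0.1, adjusted 0.13). This counted 1 read of miR-206-3p or miR-133b-3p per 434, 168 and 109 others at 6 d, against 1 per 3344, 5687 and 2499 at 0 h.

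The remaining members were near the limit of detection. MiR-1a-1-5p, the 5p arm of the precursor on chromosome 2, had 7, 4 and 4 reads at 6 d (4.46, 5.29 and 3.61 normalised CPM), against 6, 3 and 11 reads at 0 h (1.46, 0.499 and 1.70). The groups did not overlap in normalised CPM, but they did in reads. Its log2 fold change was 1.33 ± 0.42 (SE, n = 3 each, limma adjusted p = 0.031). After thinning every library to 617069 reads it was not called (limma adjusted p = 0.22), nor when any library but 6 d replicate 3 was left out (adjusted p 0.053 to 0.16). Its log2 ratio to miR-1a-3p was higher at 6 d by 2.39 ± 0.80 (SE, n = 3 each, limma adjusted p = 0.048). That call was lost without 6 d replicate 2, 6 d replicate 3, 0 h replicate 1 or 0 h replicate 2 (limma adjusted p 0.077 to 0.13).

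MiR-1b-3p, from the gene that overlaps Mir1a-2, had 15, 8 and 0 reads at 6 d (9.55, 10.6 and 0 normalised CPM), against 1, 9 and 2 at 0 h (0.243, 1.5 and 0.309). A count of 0 in 6 d replicate 3 allows up to 2.71 normalised CPM, at 3 reads, so the 6 d libraries were uneven beyond that floor. It changed by 1.64 ± 0.87 on the log2 scale, which missed the threshold (SE, n = 3 each, limma adjusted p = 0.17). It was 2.79 without 6 d replicate 3 (limma adjusted p = 0.0019) and was also called by DESeq2 (3.46, adjusted p = 0.014). MiR-1a-2-5p had 0 reads in every 6 d library and in 0 h replicate 1, and 1 read each in 0 h replicates 2 and 3. It was not tested.

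**Figure D3:**
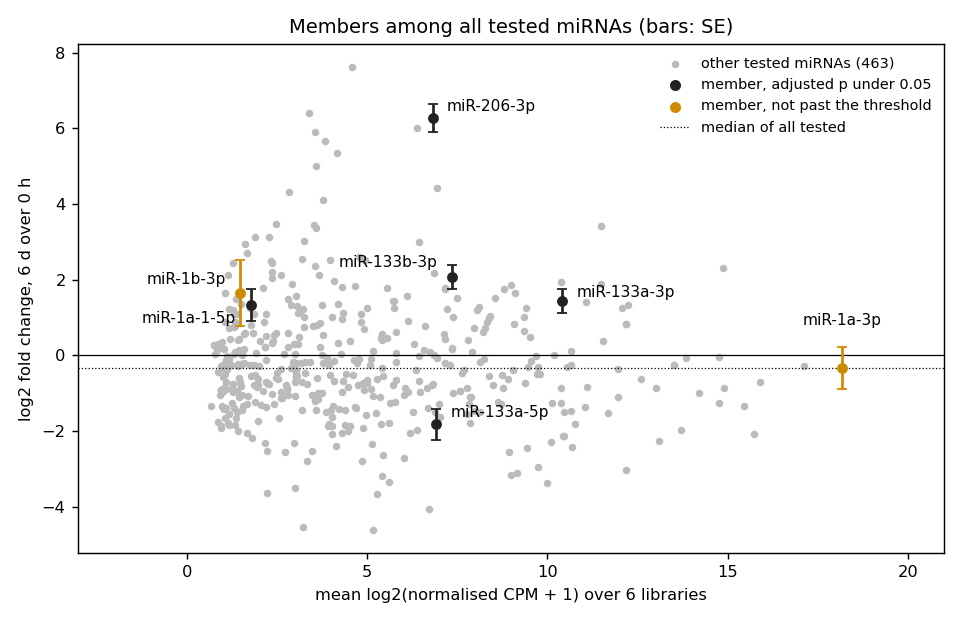
Log2 fold change of 6 d over 0 h on the vertical axis against the mean level over the 6 libraries on the horizontal axis, for the 7 tested members with their SE and the other tested miRNAs in grey. MiR-206-3p at 6.27 stands near the top, and miR-1a-3p at -0.33 lies on the median of all tested miRNAs.

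The order of the members by mean level was miR-1a-3p, miR-133a-3p, miR-206-3p, miR-133b-3p, miR-133a-5p, miR-1b-3p, miR-1a-1-5p and miR-1a-2-5p at 6 d. At 0 h it was miR-1a-3p, miR-133a-3p, miR-133a-5p, miR-133b-3p, miR-206-3p, miR-1a-1-5p, miR-1b-3p and miR-1a-2-5p. MiR-206-3p thus held place 3 at 6 d and place 5 at 0 h. The ranges over libraries of neighbours in this order did not overlap, except for miR-1b-3p and miR-1a-1-5p at both intervals. Differences between miRNAs in how readily they enter a library were not measured, so the order is one of reads.

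Likeness between profiles was measured as the root mean square distance of log2 values, each centred on its own mean over the 6 libraries. Of the 21 pairs of tested members, miR-133b-3p and miR-133a-3p were closest (0.35), and miR-206-3p and miR-133a-5p were farthest apart (4.08). Outside the family, among 270 miRNAs averaging at least 10 normalised CPM, the profiles closest to miR-206-3p were those of miR-200a-3p (0.55), miR-664-5p (0.78) and miR-6236 (0.81). For miR-133a-3p they were miR-194-5p (0.27), miR-25-3p (0.28) and miR-106b-3p (0.28). For miR-1a-3p they were miR-340-5p (0.31), miR-152-3p (0.35) and miR-101c (0.36). The median distance over the 270 was 3.42 for miR-206-3p, 1.19 for miR-133a-3p and 1.01 for miR-1a-3p. The profiles closest to miR-206-3p had log2 fold changes of 6.00, 5.34 and 5.90, so their closeness largely reflects a like rise. At 0 h miR-664-5p had 1.46 to 2.66 normalised CPM and miR-6236 had 0.309 to 0.831. Both thus reached a mean of 10 only through the 6 d libraries.

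Most of the listed epithelial miRNAs, and the liver miRNA, were higher at 6 d as miR-206-3p was. Markers of other cell types were higher, lower or not called. MiR-200a-3p, an epithelial miRNA, had 1012, 511.0 and 563 normalised CPM at 6 d, against 11.9, 7.32 and 9.42 at 0 h. Over all 470 tested miRNAs, 16% rose and 21.9% fell, the shares beside which the counts of each list stand. Of 7 epithelial miRNAs 6 rose and 0 fell (median log2 fold change 4.31, beside -0.33 over all 470). The exception was miR-203-3p (log2 fold change -0.26, limma adjusted p = 0.72). It had 246, 93.9 and 127 normalised CPM at 6 d, against 320, 203 and 78.1 at 0 h. The summed level of the 7 was 1408 to 2579 normalised CPM at 6 d and 139 to 439 at 0 h. None of the 7 was at 0 in all libraries, and only miR-429-3p was at 0 in any, in 0 h replicate 1. The liver miRNA miR-122-5p rose too, to 2086 to 23460 normalised CPM at 6 d, against 668 to 1406 at 0 h. Of 4 erythroid miRNAs, miR-451a rose and the others were not called. MiR-486a-5p and miR-486b-5p had nearly equal values in every library (9741 and 9748 normalised CPM in 6 d replicate 1), so the same reads may be counted in both. The summed level, with both rows, was 70203 to 114647 normalised CPM at 6 d and 34360 to 45080 at 0 h. Of 2 endothelial miRNAs 1 fell, miR-126a-3p, though not with library totals alone (limma adjusted p = 0.11), with sums of 25279 to 35076 normalised CPM at 6 d and 56921 to 88648 at 0 h. Of 2 smooth muscle miRNAs 0 were called by limma, 0 had an unadjusted p under 0.05 and 0 were called by edgeR (sums 27916 to 90469 normalised CPM at 6 d and 75146 to 79578 at 0 h). The part of these markers, and of the lower depth at 6 d, in the rise of miR-206-3p was not tested.

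The other striated muscle miRNAs, those within myosin genes, did not rise with the 3p arms of miR-133. Of 6 listed 4 were tested, of which 2 fell and 0 rose, beside 21.9% and 16% of all tested miRNAs. Their median log2 fold change was -1.40, beside -0.33 over all 470. MiR-208a-3p had 139, 47.6 and 50.5 normalised CPM at 6 d, against 182, 162 and 261 at 0 h (log2 fold change -1.49 ± 0.45, SE, n = 3 each, limma adjusted p = 0.024). MiR-208b-3p, from the slow myosin gene, had 28.0, 14.6 and 9.02 normalised CPM at 6 d, against 16.8, 28.9 and 48.5 at 0 h. Its log2 fold change was -0.85 and not called (limma adjusted p = 0.22). MiR-499-5p, found in slow skeletal as well as heart muscle, had 1284, 867 and 799 normalised CPM at 6 d, against 1792, 2688 and 4044 at 0 h (log2 fold change -1.48 ± 0.38, SE, n = 3 each, limma adjusted p = 0.013). With library totals alone neither fall was called (limma adjusted p = 0.12 for miR-208a-3p and 0.11 for miR-499-5p), and that of miR-208a-3p was also lost without 6 d replicate 2, 6 d replicate 3, 0 h replicate 1 or 0 h replicate 3 (0.060 to 0.087) and with DESeq2 (adjusted p = 0.055). MiR-208b-5p was not analysed here.

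**Figure D4:**
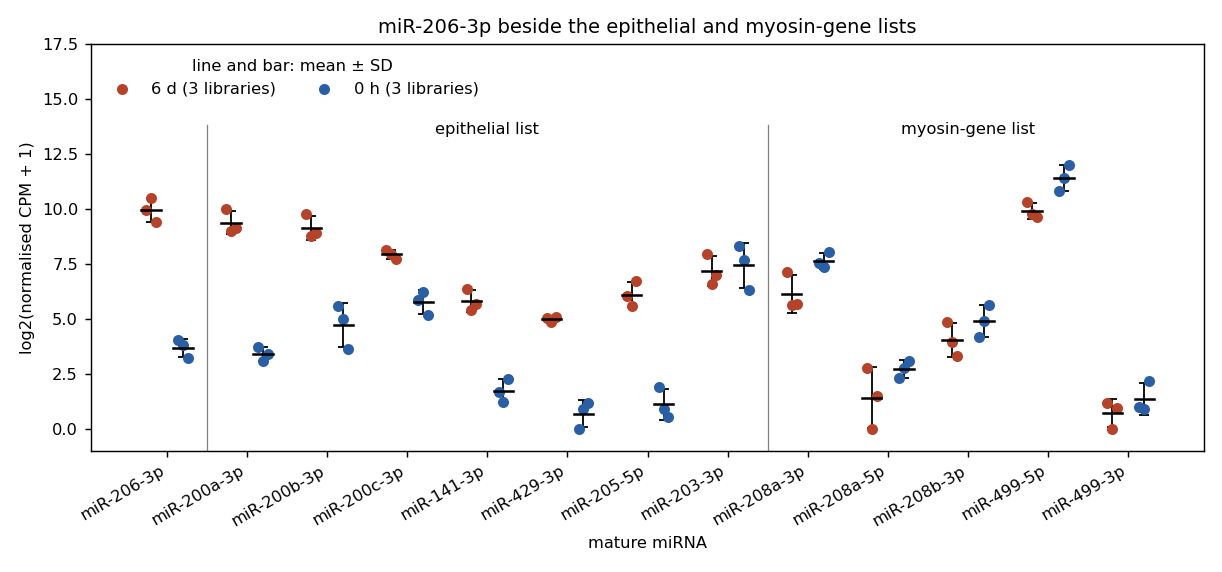
Level of miR-206-3p, the 7 epithelial miRNAs and the 5 myosin-gene miRNAs as log2(normalised CPM + 1), with 1 point per library, 6 d left of 0 h, and the mean ± SD as line and bar. MiR-206-3p and 6 epithelial miRNAs are higher in every 6 d library than in any 0 h library, while no myosin-gene miRNA is.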

How the data were processed

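Small RNA of 6 mouse myocardial libraries was analysed, 3 at 6 d and 3 at 0 h. Trizol was used for RNA and a NEBNext small RNA kit for the libraries, per the labels' protocols. The submitters' processing notes name FastQC, Trimmomatic 0.39, cutadapt 2.8 and STAR 2.5.3a, without roles. The sources used here do not give the counter, miRNA annotation or genome build. Raw read counts of 984 miRNAs were deposited for 0 h replicate 1. The other 5 deposited files hold log2(x + 1) of scaled reads with 3 decimals. Undoing the log2 gave whole multiples of 1 step per library for 2692 of 2692 testable nonzero values (within 0.0005 on the log2 scale), of 3110 in all. Larger recovered read numbers are uncertain by 0.0347% through that rounding. The counts of 0 h replicate 1 were put on that scale with a derived factor of 0.919, which makes the 6 factors multiply to 1.

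The test was limma 3.58.1 (trended prior, robust) on log2(value + 1), a scale that understates changes of low miRNAs. Arm ratios used limma over 117 precursors, where the miR-1a pair sets miR-1a-1-5p against miR-1a-3p. Other ratios used exact permutation tests. The limma step was tested on simulated data. Alternatives used RLE or TMM factors, library totals, other pseudocounts and filters, edgeR 4.0.16, DESeq2 1.42.0, limma-voom, thinning, summed rows, a replicate block and the omission of each library. Named miRNAs are the members, the listed markers and the 3 closest profiles to miR-206-3p, miR-133a-3p and miR-1a-3p. Members and lists were chosen with earlier results of these data known. Same-numbered libraries of the 2 intervals had deviations that correlated at 0.07, 0.06 and 0.27, against -0.22 to 0.16 for differently numbered ones. Only the 0.27 of replicate 3 lay outside that range, so the numbers were not taken to pair the libraries.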

Additional observations from a re-analysis of the deposited data

How the results depend on the processing

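The calls of miR-206-3p, miR-133b-3p, miR-133a-3p and miR-133a-5p kept their direction and their side of the threshold in every setting run in which they had a row of their own, and between 4 and 6 members were called. Over these settings the log2 fold change ranged from 5.88 to 6.79 for miR-206-3p, 1.90 to 2.60 for miR-133b-3p, 1.28 to 1.98 for miR-133a-3p and -2.15 to -1.29 for miR-133a-5p. Scaling moved the median of all tested miRNAs from -0.33 to -0.17 with RLE factors, to 0.02 with library totals and to 0.073 with totals that leave out miR-1a-3p, a setting chosen after seeing the data. Calls were 75 higher and 103 lower on the deposited scale, 90 and 84 with RLE factors, 83 and 40 with library totals and 98 and 49 without miR-1a-3p in the totals.

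In place of 178 miRNAs, 114 were called without 0 h replicate 1, and 114 to 179 when any 1 library was omitted. The log2 fold change of miR-1a-3p was 0.13 with library totals, 0.21 with totals that leave out miR-1a-3p and 0.079 with DESeq2, and ranged from -0.84 to 0.30 with 1 library left out; it was called in no setting. The miR-1a arm ratio was 2.38 and not called with 0.5 read added (limma adjusted p = 0.062), and 1.64 to 2.94 with 1 library left out. The family share differed by 4.0 percentage points, or by -1.78 to 10.3 with 1 library left out, negative when 6 d replicate 1 was omitted. Causes were not tested.

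With the replicate block 195 miRNAs and 5 members were called. MiR-1b-3p was then called (adjusted p = 0.038) and miR-1a-1-5p was not (0.0504). MiR-1a-1-5p was also not called without a filter (adjusted p = 0.080) or with DESeq2 (0.054). Depth limits the 3 members with 15 or fewer reads in every library.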
